A study of Homo sapiens with 4 samples.

Results

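The 4 genes described here, DHRS2, TXNIP, GSN and CLU, are ones that inhibitors of histone deacetylases are known to raise in many cultured cells. They were taken by symbol from the 25548 gene symbols of a table of FPKM (fragments counted per kilobase of transcript and scaled to the size of the library), and each symbol stood on 1 row. The list was drawn up with values of this same comparison in view, so the levels and changes below are a description of these libraries and carry no test. Polyadenylated RNA came from FaDu, an established squamous carcinoma line of the human hypopharynx. One FaDu culture, labelled DMSO only, received vehicle. The other, labelled Aza/TSA, received 5 µM 5-aza-2'-deoxycytidine (Aza), a cytidine analogue that traps DNA methyltransferases, on days 1 to 3, and 100 nM trichostatin A (TSA), an inhibitor of zinc-dependent histone deacetylases, on day 3. Each group had 1 library, so no difference has a replicate check. Both agents were given together, so the parts of Aza and of TSA in any difference cannot be told apart. A second line, UMSCC47, was also sequenced, but its values did not match the gene symbols they stand beside and are not used here.

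Histone deacetylases remove acetyl groups from histone tails and from other proteins, and TSA blocks them, so that acetylated histones build up within hours. Only a minority of genes answers such a block, and the answer includes falls as well as rises. The 4 genes have unrelated products. DHRS2 encodes a short-chain dehydrogenase/reductase first described in growth-arrested liver cancer cells. TXNIP encodes an alpha-arrestin that binds thioredoxin and restrains glucose uptake. GSN encodes gelsolin, which severs and caps actin filaments, and CLU encodes clusterin, a secreted chaperone.

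The agents act on histone deacetylases and on DNA methyltransferases, the enzymes that methylate CG dinucleotides, so the promoter windows of the members are shown first. Windows from the RefSeq promoter table (GRCh38.p14) are shown for 3 of the 4 members, and none is shown for CLU. Each window runs 5′ to 3′ on the gene's strand, from 250 bases before a transcript start to 50 after it, and CG dinucleotides, the sites of DNA methylation, are in capitals. Where the table lists several starts the one farthest upstream is shown. FPKM per gene do not tell which start was used in FaDu.
DHRS2, chr14:23629865-23630164, plus strand: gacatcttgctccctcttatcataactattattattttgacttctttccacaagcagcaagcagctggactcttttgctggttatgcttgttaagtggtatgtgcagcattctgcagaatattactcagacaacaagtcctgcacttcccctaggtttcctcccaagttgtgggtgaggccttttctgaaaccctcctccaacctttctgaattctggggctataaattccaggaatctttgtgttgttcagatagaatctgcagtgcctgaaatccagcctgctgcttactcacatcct
TXNIP, chr1:145996530-145996829, minus strand: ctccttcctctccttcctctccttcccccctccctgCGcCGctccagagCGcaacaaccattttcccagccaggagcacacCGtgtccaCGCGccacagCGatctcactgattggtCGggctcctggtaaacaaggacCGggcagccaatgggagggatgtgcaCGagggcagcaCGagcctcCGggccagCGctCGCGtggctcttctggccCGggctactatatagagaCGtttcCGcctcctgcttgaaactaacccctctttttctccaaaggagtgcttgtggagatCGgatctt
GSN, chr9:121201233-121201532, plus strand: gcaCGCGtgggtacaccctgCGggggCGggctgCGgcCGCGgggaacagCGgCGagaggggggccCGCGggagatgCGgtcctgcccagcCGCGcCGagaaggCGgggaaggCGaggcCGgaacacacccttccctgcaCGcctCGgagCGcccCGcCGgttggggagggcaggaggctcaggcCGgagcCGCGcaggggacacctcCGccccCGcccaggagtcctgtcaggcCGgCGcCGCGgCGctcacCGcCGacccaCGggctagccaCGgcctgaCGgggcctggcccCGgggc

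The windows differ widely in CG dinucleotides. The DHRS2 window held 0, which 1391 of the 35116 windows of the table (3.96%) share. The TXNIP window held 19 and the GSN window 39, against a median of 14 over all windows. The other TXNIP start held 4, and the other 5 GSN starts held 31, 6, 6, 12 and 23. The motifs below were searched on both strands after the sequences had been seen. The TATA box core TATAAA, found in 11.5% of all windows, lay 29 bases before the start of DHRS2. CCAAT, found in 34.6% of windows, lay in the TXNIP window at 140 and 105 bases before the start, the first on the opposite strand. GGGCGG, the GC box bound by Sp1-type factors and present in 45.0% of windows, matched the GSN window at 3 places. None of the 3 windows held CACGTG, which 7.26% of windows hold. A pair of CACGAG copies set 5 bases apart, the form of the carbohydrate response element known in TXNIP, was searched as CACGAGNNNNNCACGAG. It lay in the TXNIP window as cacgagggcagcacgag, starting 88 bases before the start, and was present in 2 of the 35116 windows. These matches are descriptions of sequence and not measured binding or methylation.

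In the treated FaDu library DHRS2, CLU and GSN were at higher levels than in the DMSO library, and TXNIP differed little. Changes are given as log2((treated FPKM + 1)/(DMSO FPKM + 1)), and a gene is called at a 2-fold difference on that scale. Of the 4 genes, 3 were called higher, none lower and 1 neither. A gene counts as measured if either library had it at 1 FPKM or more. Of the 13558 measured genes, 16.1% were called higher and 5.21% lower, with a median change of 0.13. Since the members were chosen on this comparison, nothing is read from their count against that background. DHRS2, CLU and GSN were higher, the direction known for deacetylase inhibitors, and TXNIP was not. The genes were listed with these values in view, so the match is descriptive. The part of TSA in it cannot be told apart from that of Aza. The highest of the 4 stood 14.3-fold above the lowest in the DMSO library (TXNIP over GSN) and 12.5-fold in the treated library (DHRS2 over GSN).

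**Figure D1:**
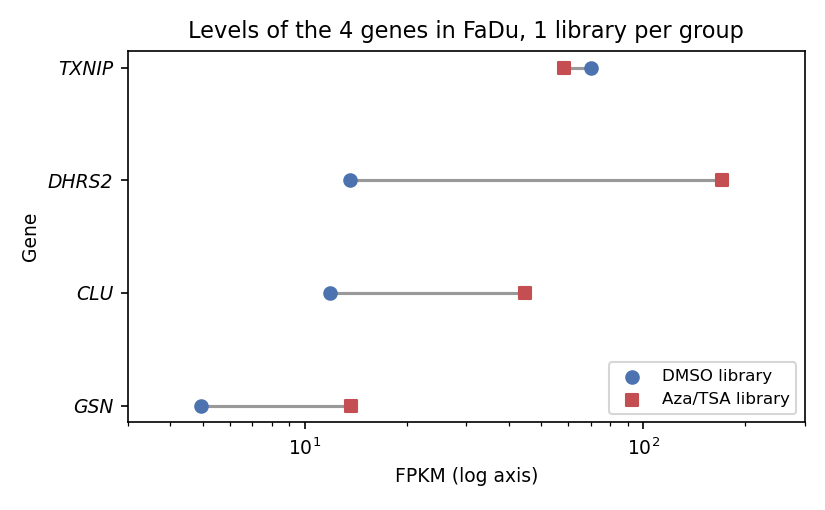
FPKM of each of the 4 genes (log axis) in the FaDu DMSO library (circles) and the FaDu Aza/TSA library (squares), 1 library per group and so without error bars. DHRS2 moves from 13.6 to 170.8 FPKM and passes TXNIP, which is at 70.2 and 58.3.

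DHRS2 gave the widest difference. It was 13.6 FPKM under vehicle and 170.8 FPKM after treatment, a 12.6-fold ratio and a log2 change of 3.56. It went from rank 4673 to rank 407 among all symbols by level, and its change was the 178th largest of the 13558 measured genes. The gene was thus already expressed under vehicle, above the median of 7.45 FPKM of the measured genes, and was not switched on from 0. The gene with the nearest pair of levels was SNAR-F, a short noncoding RNA with near-identical copies (15.5 and 154.5 FPKM). It was followed by HIST1H2BK, a histone H2B gene (24.8 and 137.7 FPKM). FPKM give no read counts, and on so short a transcript the SNAR-F levels may rest on few reads. Nearness was measured as the distance over log2(FPKM + 1) in the 2 libraries, which is too few to speak of shared behaviour. The distances were 0.23 for SNAR-F and 0.88 for HIST1H2BK.

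The rest of the DHRS group held 13 genes with smaller changes. Of the 12 measured, 2 were called higher and none lower, with a median change of 0.08. Over all measured genes 16.1% were called higher and 5.21% lower, with a median of 0.13. DHRSX, a dehydrogenase gene of the pseudoautosomal region, stood on 2 rows with the same values, 1.15 FPKM under vehicle and 6.86 after treatment, and its summed change was 2.15. DHRS11, which encodes a cytosolic reductase, was 4.74 and 12.3 FPKM, and fell under the 2-fold line, at 0.53, with the trend of change on transcript GC content subtracted. On that scale the median of the 13 measured genes of the group, DHRS2 included, was -0.27. DHRS13 was 3.68 and 8.01 FPKM, and DHRS1 5.60 and 10.1 FPKM, both under the 2-fold line on the (FPKM + 1) scale, as was DHRS9 at 0.846 and 1.82 FPKM, measured only through the treated library. The retinal reductase gene DHRS3 was 20.4 and 15.4 FPKM, and DHRS7 35.6 and 28.1 FPKM. DHRS7B was 9.01 and 8.60 FPKM, and DHRS12 1.25 and 1.45 FPKM.

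DHRS4, the close relative that lies beside DHRS2, was 4.41 FPKM under vehicle and 4.56 FPKM after treatment. Its copies were as level, DHRS4L2 at 3.94 and 3.78 FPKM and DHRS4L1 at 1.25 and 1.24 FPKM. These 3 genes share near-identical sequence, so the split of reads between them is uncertain. The ratio of DHRS2 to DHRS4 went from 3.07 to 37.5. DHRS2 made up 12.7% of the summed FPKM of the DHRS group under vehicle and 61.0% after treatment. Such a share is taken within 1 library, so a scaling between libraries does not enter it.

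TXNIP was 70.2 FPKM under vehicle and 58.3 FPKM after treatment, a log2 change of -0.26 at percentile 30.2 of the measured genes. Levels like these were common. There were 80 measured genes within a distance of 0.25 of TXNIP, the nearest being C14orf109 (69.9 and 59.5 FPKM) and NCKAP1, a part of the WAVE complex of actin regulation (70.6 and 56.8 FPKM). The other alpha-arrestins, which act as adaptors for ubiquitin ligases at membranes, were also within 2-fold in all 4 measured cases. Among all 13558 measured genes, 10674 were within 2-fold. ARRDC4, the closest relative of TXNIP in its response to glucose, was 9.63 and 9.75 FPKM. ARRDC3 was 9.91 and 7.25 FPKM, ARRDC1 17.7 and 32.1 FPKM, and ARRDC2 3.44 and 5.96 FPKM.

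MondoA (gene MLXIP) and ChREBP (gene MLXIPL) pair with MLX on the carbohydrate response element of TXNIP. MLX was 18.5 FPKM under vehicle and 37.2 after treatment, a change of 0.97 that lay just under the 2-fold line. MLXIPL was 0.138 and 1.07 FPKM. MLXIP stood on 2 rows, at 9.09 and 4.30 FPKM under vehicle and at 15.2 FPKM on both after treatment. Its summed change was 1.12, and the gene was under the 2-fold line when only the higher row was kept. TXN, the thioredoxin that TXNIP binds, was 463.9 and 250.3 FPKM, a change of -0.89, and its ratio to TXNIP went from 6.61 to 4.30. Of the 14 genes of the thioredoxin system, all measured, 1 was called higher (7.14%) and none lower, with a median change of -0.06. The shares over all measured genes were 16.1% and 5.21%. The gene of the system called higher was the peroxiredoxin gene PRDX5, at 71.6 and 170.0 FPKM. With the GC trend subtracted it was at 0.44 and no gene of the system was called, and with length correction none was called higher and 1 lower. The peroxiredoxin gene PRDX3 was 140.2 and 93.0 FPKM, and the reductase gene TXNRD3 3.27 and 1.97 FPKM.

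GSN was the least abundant of the 4 genes in both libraries. It was 4.92 FPKM under vehicle and 13.7 FPKM after treatment, a 2.78-fold ratio and a log2 change of 1.31, at percentile 90.6. As for TXNIP, 80 measured genes lay within a distance of 0.25, the nearest being the retinoic acid receptor gene RARA (4.98 and 13.5 FPKM) and ATAD3B, a mitochondrial ATPase gene (5.00 and 13.5 FPKM).

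Of the other 7 genes of the family 4 were measured, 3 of these were called higher and none lower, with a median change of 1.15, against 16.1% called higher and a median of 0.13 over all measured genes. Of these, SCIN was measured only through its level after treatment. The calls of CAPG, FLII and GSN did not hold with the GC trend subtracted (below 2-fold at 0.75, 0.34 and 0.75). CAPG, which caps actin filaments without severing them, was 12.5 and 37.0 FPKM and kept near the same ratio to GSN, 2.54 under vehicle and 2.70 after treatment. FLII, a gelsolin relative with leucine-rich repeats, was 26.1 and 55.7 FPKM, and the adseverin gene SCIN 0.176 and 1.75 FPKM. SVIL, the gene of the membrane-linked supervillin, was 4.25 and 3.94 FPKM. The villin genes VIL1 and VILL, and AVIL, were under 1 FPKM in both libraries.

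CLU was 11.9 FPKM under vehicle and 44.7 FPKM after treatment, a 3.76-fold ratio and a log2 change of 1.83, at percentile 95.6. It rose in rank from 5120 to 1756. The nearest of 18 genes within a distance of 0.25 were VAT1, a vesicle membrane protein gene (12.3 and 44.9 FPKM), and HLA-H, an HLA pseudogene whose reads may belong to related HLA genes (12.3 and 43.8 FPKM). The genes listed with CLU, of secreted chaperones, secreted protease inhibitors and clusterin receptors, showed no common direction. Of 5 measured, 1 was called higher and 1 lower, against 16.1% and 5.21% of all measured genes. The listed gene called higher was SERPINA1, of the protease inhibitor alpha-1-antitrypsin. It was 0.557 and 7.85 FPKM, measured only through the treated library. Of the receptors that bind clusterin, VLDLR was called lower, at 5.78 and 1.30 FPKM, and LRP8 was 8.53 and 4.18 FPKM, within 2-fold on the (FPKM + 1) scale. CLUL1, the relative of CLU expressed in the retina, was listed at 0.0358 FPKM and at 0.

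**Figure D2:**
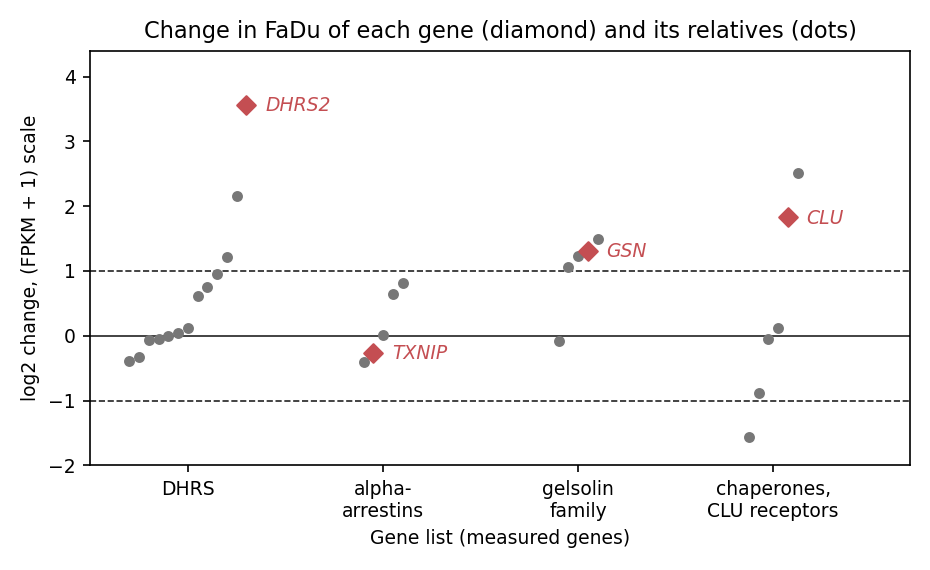
Log2 change on the (FPKM + 1) scale in FaDu of each of the 4 genes (diamonds) and of the measured genes of its list (dots), sorted by change within a list, with dashed lines at 2-fold. DHRS2 (3.56) lies above every other measured DHRS gene, while TXNIP and GSN lie among their relatives.

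The place of the 4 genes among all measured genes is shown in the plot of the treated against the DMSO library. Under vehicle they covered a wide range, from percentile 39.5 (GSN) to 92.9 (TXNIP) of measured genes by level. In the treated library the range was 62.7 (GSN) to 97.0 (DHRS2).

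**Figure D3:**
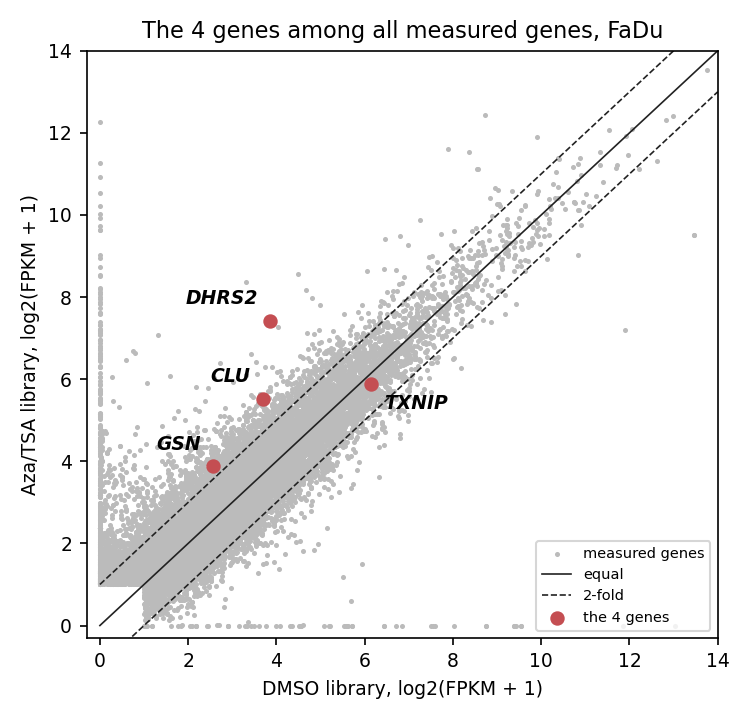
Log2(FPKM + 1) of 13558 measured genes in the FaDu Aza/TSA library against the DMSO library, with the line of equal levels, dashed lines at 2-fold and the 4 genes in red. DHRS2, CLU and GSN lie above the upper dashed line, and TXNIP close to the line of equal levels.

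Changes in these libraries moved with the GC content of the transcript, with a Spearman correlation of 0.62 across 11566 measured genes that share the same 2 libraries. The members' transcripts held 54.3% GC (DHRS2), 43.9% (TXNIP), 56.3% (GSN) and 51.7% (CLU), against a median of 48.8%. With the trend subtracted, DHRS2 kept a change of 3.12 (8.70-fold) and CLU of 1.57 (2.96-fold). TXNIP was at -0.11. GSN fell under the 2-fold line, at 0.75 (1.69-fold). On that scale 7.44% of genes were called higher and 4.25% lower. In the gelsolin family, 1 of 5 measured genes, SCIN, was then called higher. At 0.176 and 1.75 FPKM, SCIN was measured only through the treated library. It lay below the 5 FPKM that genes needed in each library to enter the fit of the trend. MLX and MLXIP were at 0.70 and 0.49. The part of GC content in these results was not tested further.

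**Figure D4:**
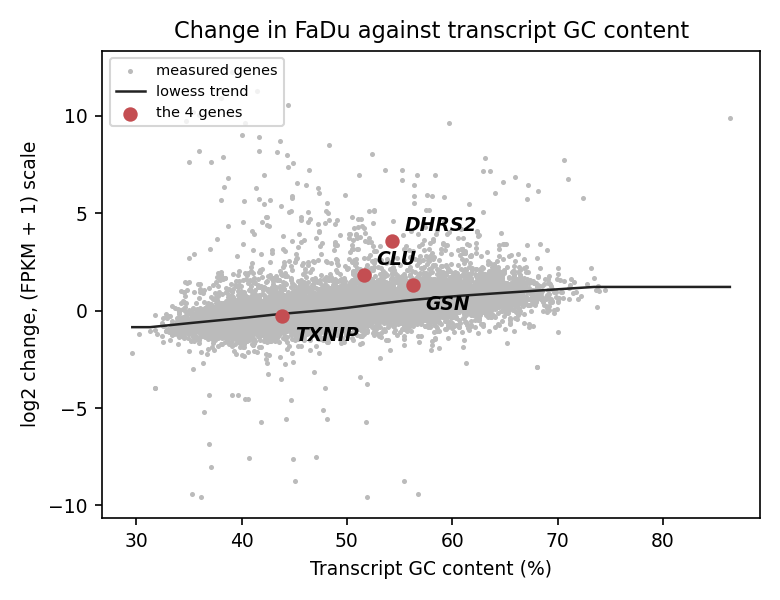
Log2 change on the (FPKM + 1) scale in FaDu against the GC content of the transcript in percent, for 11566 measured genes, with the lowess trend as a line and the 4 genes in red. GSN lies 0.75 above the trend, DHRS2 3.12 and CLU 1.57 above it.

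Other genes that deacetylase inhibitors are reported to raise in cultured cells went in both directions. Of 30 such genes, 26 were measured, 7 were called higher (26.9%) and 2 lower (7.69%), with a median change of 0.19. Over all measured genes the shares were 16.1% and 5.21% and the median 0.13. With the GC trend subtracted, 5 of the 26 were called higher and 2 lower, against 7.44% and 4.25% of all genes with a value. HIST1H2BK was 24.8 and 137.7 FPKM, the retinoic acid-binding protein gene CRABP2 4.46 and 22.4 FPKM, and CDKN1A, which encodes the cell cycle inhibitor p21, 16.2 and 66.1 FPKM. The death ligand gene TNFSF10 was lower, at 50.3 and 9.25 FPKM, as was GADD45A, a growth arrest and DNA damage gene, at 157.5 and 49.6 FPKM. Of 21 genes reported to be lowered, 20 were measured, 1 was called lower and 1 higher, with a median of -0.05. MYC was 257.5 and 91.3 FPKM, and the survival gene BCL2L1 was 16.1 and 48.3 FPKM. The angiogenic factor gene VEGFA was 55.4 and 27.3 FPKM and the receptor gene ERBB2 15.8 and 30.0 FPKM, both within 2-fold on the (FPKM + 1) scale.

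Of the 11 zinc-dependent deacetylase genes, 3 were called higher (27.3%) and none lower, against 16.1% and 5.21% of all measured genes. The median was 0.31, against 0.13 over all measured genes. How far TSA at this dose blocks each encoded protein was not measured. Those called higher were HDAC7 (6.04 and 18.1 FPKM), HDAC11 (1.01 and 3.23 FPKM) and HDAC5 (2.54 and 6.21 FPKM). With the GC trend subtracted none of these 3 stayed at 2-fold. With the trend subtracted 1 of the 11 was called higher and 1 lower, against 7.44% and 4.25% of all genes with a value. These 2 genes were HDAC9 (1.10 and 2.44 FPKM), at 1.08, and HDAC4 (1.09 and 0.427 FPKM), at -1.04. Both lay below the 5 FPKM that genes needed to enter the fit of the trend.

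Cell type markers were listed to describe the culture. They bear on its squamous epithelial character and cannot tell FaDu from another squamous line. All 10 squamous epithelial markers were measured, from 15.2 FPKM (KRT6A) to 1164 FPKM (KRT17) in the DMSO library. KRT5 was 686.5 and 226.0 FPKM, TP63 73.7 and 23.2 FPKM, and KRT14 49.8 and 147.1 FPKM, so basal markers moved in both directions. With the GC trend subtracted KRT14 was under the 2-fold line, at 0.79, and KRT5 and TP63 were at -2.18 and -1.39. Of 8 leukocyte and endothelial markers 2 were measured, CD14 (1.62 and 4.59 FPKM) and CDH5 (0.743 and 2.85 FPKM). All 8 together summed to 2.62 FPKM under vehicle and 8.65 after treatment, PTPRC was at most 0.0513 FPKM and CLDN5 was listed at 0 in both. Of 5 hepatocyte markers, which bear on DHRS2 and CLU as genes of liver, ALB was at 0.0291 FPKM in each library and TTR was listed at 0 in both. Only SERPINA1 of the 5 was measured, and only through the treated library (0.557 and 7.85 FPKM). In a bulk culture, fewer cells that express a gene and less RNA per cell cannot be told apart.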

How the data were processed

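The authors deposited FPKM, listed by gene symbol with 1 column for each library, per the file headers. The submitters' processing notes name the tools TopHat 1.3.2 and Cufflinks 2.0.2 and the build hg19. Annotation, filters and between-library scaling: not given in the sources used here. Libraries came from a stranded poly(A) kit, per the labels' protocols.

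The members and gene lists were chosen with earlier results of these data known. The 2 FaDu columns were used as deposited, with 45 repeated rows summed by symbol. The UMSCC47 columns were left out: their Spearman correlation across rows was 0.124 with each other and 0.110 and 0.121 with the FaDu columns, against 0.908 between the FaDu columns. The FaDu columns sum to 491963 (DMSO) and 516692 (treated) FPKM. FPKM give no read counts, so absolute depth is unknown. Of 666 rows between 0.005 and 0.1 FPKM in both libraries, 69.4% had treated-to-DMSO ratios that matched a ratio of 2 whole numbers of at most 6, to within 0.1%, at a worth of 1 read that was equal in both libraries.

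The change used a pseudocount of 1 FPKM, which understates changes of low genes. Of the 5 listed genes 1 is not reported here. Genes named are the other 4, every measured gene of the DHRS, alpha-arrestin, MondoA and ChREBP, and gelsolin lists, the 4 with the widest change in each other list, and the 2 nearest genes to each member. Genes named outside this rule, among them GADD45A and HDAC4, and the sequence motifs were chosen after their values were seen. The list of lowered genes counts CTPS and its newer symbol CTPS1 once. GC content and length came from the longest coding transcript in GENCODE release 29. Where a symbol had no coding transcript, its longest transcript of any kind was used. Symbols matched for 85.3% of measured genes. The trend was fitted by lowess (statsmodels 0.14.6, fraction 0.3) over the 6642 genes that reached 5 FPKM in each library. The script that makes the calls was checked on simulated data with known changes. The genes given a change there had higher DMSO levels than DHRS2, CLU and GSN, and the changes were wider than that of GSN. The check thus does not cover low levels or smaller changes. With 1 library per group no test between the groups was run.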

Additional observations from a re-analysis of the deposited data

How the results depend on the processing

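DHRS2, CLU and TXNIP kept their direction and their side of the 2-fold line under pseudocounts of 0.1 and 5, and under GC and length correction. The same held under TPM and median scaling, which without a pseudocount shift every change by only -0.07 and -0.05. Each of these genes stood on 1 row, so keeping the highest row per symbol could not change them. Their log2 changes ranged from 3.12 to 3.65 (DHRS2), 1.56 to 1.90 (CLU) and -0.37 to -0.11 (TXNIP). GSN ranged from 0.75 to 1.46 and fell under the line with a pseudocount of 5 (0.91) and with GC correction (0.75). Genes called higher numbered 893 with a pseudocount of 5 and 861 with GC correction, and those called lower 1182 with a pseudocount of 0.1, 253 with 5 and 1152 with TPM scaling, against 2178 and 706. Of the genes reported lowered by inhibitors, 2 were called lower with a pseudocount of 0.1, either scaling, GC or length correction, and 0 higher with GC correction. A filter at 5 FPKM or none is included for the gene lists. Leaving out the filter could not change a count, as a gene under 1 FPKM in both libraries cannot reach 2-fold with a pseudocount of 1. Keeping the highest row could not change lists in which each symbol stood on 1 row. For the other lists 18 values moved, by over 1.5 times or to or from 0. The 108 values that did not move include these fixed ones. The cause was not tested. No paired analysis was possible because each group has 1 library. For the same reason no library could be left out, and no interval can be given.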
